A study of Mus musculus with 2 samples.

Results

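Genes of the Wnt pathway were followed across the stromal cells of mouse visceral fat after a high-fat diet. They were the ligands Wnt2 and Wnt11, the secreted modulators Sfrp1, Sfrp2, Sfrp4, Dkk2, Dkk3 and Rspo3, and the target gene Axin2. These 9 genes were taken by symbol, and all were found among the 30084 genes of the transcript table. The material was the stromal vascular fraction (the non-adipocyte cells released by enzyme digestion) of epididymal white fat. It came from male mice on a C57BL/6J background, either wild type or deficient in Mincle (a C-type lectin receptor, the product of Clec4e), after 15 weeks of high-fat diet. All animals shared the diet, so there was no lean group. Cells were marked with hashtag antibodies, pooled and sequenced as 1 transcript library (TAS-Seq on the BD Rhapsody microwell system), with a further library for the tags. Both genotypes lie in that 1 library, and the labels pair no hashtag with a genotype or a number of mice. No comparison of genotypes was therefore made, and no p-value is given.

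Wnt proteins are lipid-modified secreted ligands that bind Frizzled receptors and LRP co-receptors. In the canonical branch they stabilise beta-catenin, which acts with TCF/LEF factors on target genes such as Axin2, a scaffold of the beta-catenin destruction complex that damps the signal. Secreted frizzled-related proteins (Sfrp) bind Wnt ligands, Dickkopf proteins such as Dkk2 bind the LRP co-receptors, and R-spondins keep Frizzled receptors at the cell surface. In fat tissue, beta-catenin signalling is known to hold back the differentiation of preadipocytes.

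The bases before the start site are shown for a ligand, an antagonist and the target gene. RefSeq windows of 250 bases on GRCm38.p6 were at hand for 5 of the 9 genes (Wnt2, Wnt11, Sfrp2, Dkk2 and Axin2). Capitals mark 4 motifs searched on both strands: CTTTGA (the core bound by TCF/LEF factors), TATAAA (known as the TATA box), GGGCGG (known as the GC box) and the box CCAAT. Wnt11 lies at chr7:98834862-98835111, Sfrp2 at chr3:83766071-83766320 and Axin2 at chr11:108920099-108920348, all on the plus strand.
Wnt11: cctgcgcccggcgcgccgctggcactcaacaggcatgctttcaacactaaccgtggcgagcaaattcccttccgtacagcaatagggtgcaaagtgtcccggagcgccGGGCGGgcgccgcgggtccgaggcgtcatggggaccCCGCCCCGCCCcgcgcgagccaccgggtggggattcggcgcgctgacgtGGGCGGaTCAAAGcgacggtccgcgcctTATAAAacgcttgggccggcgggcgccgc
Sfrp2: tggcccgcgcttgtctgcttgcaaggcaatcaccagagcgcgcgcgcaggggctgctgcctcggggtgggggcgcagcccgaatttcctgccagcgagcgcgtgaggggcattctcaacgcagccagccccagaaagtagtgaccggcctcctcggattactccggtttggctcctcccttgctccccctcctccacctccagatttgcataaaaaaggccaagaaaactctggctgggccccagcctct
Axin2: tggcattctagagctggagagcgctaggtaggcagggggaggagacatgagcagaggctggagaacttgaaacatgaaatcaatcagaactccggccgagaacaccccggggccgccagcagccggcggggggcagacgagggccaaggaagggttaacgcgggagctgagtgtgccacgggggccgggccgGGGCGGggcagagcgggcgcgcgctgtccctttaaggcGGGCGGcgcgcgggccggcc
The Wnt11 window held 4 GC boxes, of which those at -106 and -101 overlap, with 1 TCF/LEF core at -50 and 1 TATA box at -29 (positions are of the first base, counted from the start site). The Axin2 window held 2 GC boxes, and the Sfrp2 window held none of the 4 motifs. Of the 5 genes' windows, the TCF/LEF core was found only in this Wnt11 window, whereas 13.8% of all 32851 windows of that length held it. The shares of windows were 12.4% for TATAAA, 32.7% for GGGCGG and 33.8% for CCAAT. A match describes these letters and is not a binding site.

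The 15192 cells kept had a median of 34641.5 counts, and the 4 hashtags A0309, A0310, A0311 and A0312 held 3255, 3475, 3857 and 4605 of them. Clustering, made without the 9 genes and the other Wnt genes, gave 3459 fibroblast-like, 1010 endothelial-like and 214 mural-like cells, where mural cells are the pericytes and smooth muscle cells of vessel walls. The summed level of the 6 fibroblast markers was 44718 CPM (counts of a gene out of each 1000000 counts of the cells) in the fibroblast-like cells and 221 in the endothelial-like cells. In the mural-like cells it was 4822, with Dcn and Lum at 0. Depth differed, with medians of 35215 counts per fibroblast-like cell, 13094.5 per endothelial-like cell and 13803.5 per mural-like cell, so shares of cells are also given after each cell was thinned to 10000 counts. Within the fibroblasts, markers named 863 Dpp4 progenitor-like cells (Dpp4, Pi16, Sema3c), 223 preadipocyte-like (Fabp4, Lpl, Pparg), 623 inflammatory (Il6, Cxcl1, Ccl7), 173 F3 fibroblast-like (Clec11a, Gdf10, Fmo2) and 141 activated cells (Inhba, Ereg, Fosl1). In the F3 fibroblast-like state, F3 itself was not among the markers met. Listed markers not met were Tnc, Col15a1, Sparcl1, Vcam1, Apoe and Col4a1 in the preadipocyte-like state. They were Saa3 and Lcn2 in the inflammatory state and Plau, Lif, Hmga2 and Ptgs2 in the activated state. At clustering resolution 2.0 the preadipocyte name also went to 263 cells led by Tnc, Tagln and Col8a1, the leading genes of a sub-cluster unnamed here. A further 5 fibroblast sub-clusters were given no name by these rules and are called by their leading genes, with Wnt genes left out. Sfrp1 was thus left out of the name of the Trf, Agt and Mylk-led cells. Their leading genes also included Hp, which like Agt is on the inflammatory list. At clustering resolution 2.0, 231 cells led by Mylk, Trf, Sfrp1, Agt and Hp were named inflammatory. Mixed sub-clusters, whose leading genes belong to another class or to the cell cycle, were left out (508 fibroblast, 472 endothelial and 22 mural cells).

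Most of the 9 genes stood higher in fibroblasts than in the cells of the vessel wall. Levels are CPM of the cells' summed counts, and a gene is called higher where the log2 ratio of CPM + 1 was at least 1 in size for the pooled cells and for each hashtag with 20 cells on both sides, all with 1 sign. Against the endothelial-like cells, 7 of 9 genes were called higher in fibroblasts and none lower, where 9.95% of 12507 genes were called higher and 12.6% lower. These were Wnt2, Wnt11, Sfrp1, Sfrp2, Sfrp4, Dkk3 and Axin2. The median log2 ratio of the 9 genes was 4.04 (4.73 with Wnt2, at 0 in endothelial cells, at its bound), against -0.31 over all genes tested. Against the mural-like cells, 7 of 9 were called higher and none lower, where 6.02% and 8.16% of 12548 genes were called higher and lower, with a median of 4.04 (4.14 with Wnt2 and Rspo3 at their bounds) against -0.37. Here Dkk2 and Rspo3 were called and Wnt11 and Axin2 were not. The 9 genes were chosen with earlier results of these data known, so their counts beside all genes are a description only. Between mural-like and endothelial-like cells none of the 9 genes reached the 5 CPM needed, so none was tested, while 14.6% of 12760 genes were called in either direction. With hashtags set again from the tag counts, Wnt11 and Axin2 lost the call over endothelial cells, at log2 ratios of 1.64 and 1.37. That rule left 987 fibroblast-like cells in place of 3459. The 987 still held 2 sub-clusters, of 147 and 98 cells, led by macrophage genes such as Cd68 or C1qa, so the cells compared also differed. With a pseudocount of 5 CPM, Axin2 lost that call (1.01) and Dkk2 the call over mural cells (1.04).

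**Figure D1:**
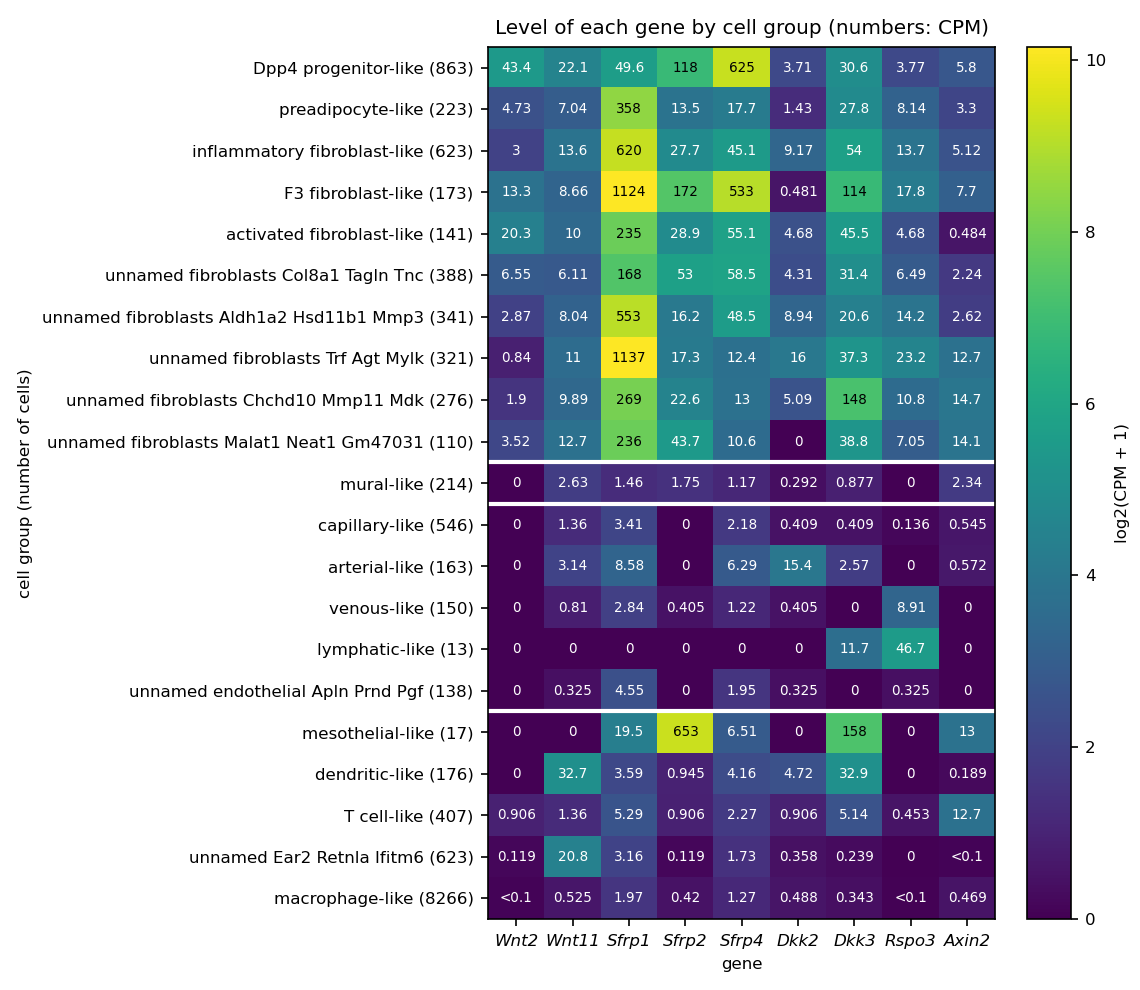
Level of each gene (columns) in each cell group (rows, number of cells in brackets), coloured by log2(CPM + 1) with the CPM printed; white lines part the fibroblast, mural, endothelial and other groups. Wnt2 is at 43.4 CPM in the Dpp4 progenitor-like cells and at 0 in every mural and endothelial group, while Sfrp1 is at 1124 CPM in the F3 fibroblast-like and 1137 CPM in the Trf, Agt and Mylk-led cells. In the 13 lymphatic-like cells a floor of 3 counts is 17.5 CPM, above the fibroblast level of 15.5, so their 0 does not show a lower level.

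Wnt2, a canonical ligand (GRCm38, chr6:17988940-18030585, minus strand), was highest, among the fibroblast and vessel groups, in the Dpp4 progenitor-like cells. Its level in these cells was 51.0, 41.2, 44.7 and 34.9 CPM in A0309, A0310, A0311 and A0312. All 4 hashtags lay above every hashtag of the next state, the activated fibroblasts, at 23.8, 25.4, 14.6 and 16.2 CPM. The F3 fibroblast-like cells followed at 13.3 CPM in the pool, the preadipocyte-like cells at 4.73 and the inflammatory fibroblasts at 3.0, with hashtag ranges that overlapped between neighbours. A count of Wnt2 was found in 33.7% of Dpp4 progenitor-like cells (20.5% after thinning). In macrophage-like cells, which were deeper at a median of 41111 counts, that share was 0.194%. No count was found in 1010 endothelial-like or 214 mural-like cells. Set against a floor of 3 counts over each group, the fibroblast level of 15.5 CPM was at least 85.4-fold higher than in endothelial cells and at least 17.7-fold higher than in mural cells. That floor allows up to 0.297% of endothelial-like and 1.40% of mural-like cells with a count. These limits, and the intervals given here, cover counting error only.

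Wnt11, a ligand known mainly for beta-catenin-independent signalling (chr7:98835112-98855195, plus strand), was more evenly spread over the fibroblasts. It stood at 20.3, 25.8, 20.6 and 22.2 CPM in the Dpp4 progenitor-like cells, all above the 14.0, 12.2, 14.7 and 14.0 CPM of the inflammatory fibroblasts. Below these each group's range overlapped the next, down to 6.11 CPM in the Col8a1, Tagln and Tnc-led fibroblasts. The Malat1, Neat1 and Gm47031-led cells, at 12.7 CPM in the pool, ran from 1.84 to 31.1 CPM. They thus overlapped the Dpp4 progenitor-like cells as well. The share of cells with a count was 33.8% in Dpp4 progenitor-like cells, 0.792% in endothelial-like cells and 1.20% in macrophage-like cells, and after thinning 16.9%, 0.689% and 0.428%. In mural-like cells Wnt11 had 9 counts in all, at 0, 8.98, 0 and 2.85 CPM, so the 4 log2 ratios over mural cells ran from 0.54 to 3.69. All 9 counts lay in the 30 cells of the Ccl19 and Colec11-led mural sub-cluster. Without A0310, which held most of them, the ratio was 2.71 and passed the rule.

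The 3 Sfrp genes did not share 1 pattern: over the other fibroblasts, Sfrp2 and Sfrp4 were called higher and Sfrp1 lower in the Dpp4 progenitor-like cells, and Sfrp1 was called higher in the F3 fibroblast-like cells. Sfrp1 (chr8:23411502-23449632, plus strand) stood at 32.6, 68.98, 49.0 and 50.7 CPM in Dpp4 progenitor-like cells, the lowest of all fibroblast groups. In F3 fibroblast-like cells it stood at 1015, 1065, 1232 and 1142 CPM. The Trf, Agt and Mylk-led fibroblasts were alike, at 1076, 1224, 1159 and 1048 CPM. These ranges overlapped with each other and with no other group. The inflammatory fibroblasts came next at 568, 631, 696 and 586 CPM, and the Col8a1, Tagln and Tnc-led cells were the lowest but for the Dpp4 progenitors, at 168 CPM in the pool. After thinning, 85.2% of F3 fibroblast-like cells had a count of Sfrp1, against 18.7% of Dpp4 progenitor-like cells, 3.31% of endothelial-like cells and 1.6% of macrophage-like cells.

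Sfrp4 (chr13:19623104-19632994, plus strand) had its highest levels in the Dpp4 progenitor-like and F3 fibroblast-like cells. It stood at 581, 623, 664 and 637 CPM in the Dpp4 progenitor-like cells. In the F3 fibroblast-like cells it stood at 333, 416, 690 and 654 CPM, a wider range that overlapped the first. The highest hashtag of any other fibroblast group kept was 124.8 CPM, in the Aldh1a2, Hsd11b1 and Mmp3-led cells. The preadipocyte-like cells stood at 26.7, 9.63, 10.2 and 34.1 CPM. A count was found in 72% of Dpp4 progenitor-like, 49.7% of F3 fibroblast-like and 5.43% of preadipocyte-like cells after thinning, against 1.26% of macrophage-like cells.

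Sfrp2 (chr3:83766321-83774316, plus strand) differed between hashtags in the F3 fibroblast-like cells. In F3 fibroblast-like cells it stood at 28.5, 219, 158 and 310.8 CPM, with A0309 far below the others. Its 1075 counts there lay in 29 of 173 cells, and after thinning 13.6% of these cells had a count, against 15.7% of all fibroblast-like cells. In Dpp4 progenitor-like cells it stood at 85.2, 92.5, 182 and 119 CPM, with counts in 353 of 863 cells. The hashtag ranges of the F3 fibroblast-like and Dpp4 progenitor-like cells overlapped, and the Dpp4 progenitor-like cells lay above the next group, the Col8a1, Tagln and Tnc-led cells at 53.0 CPM, in every hashtag. The preadipocyte-like cells were lowest among the fibroblasts, at 13.5 CPM, and 1 count was found in 1010 endothelial-like cells.

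**Figure D2:**
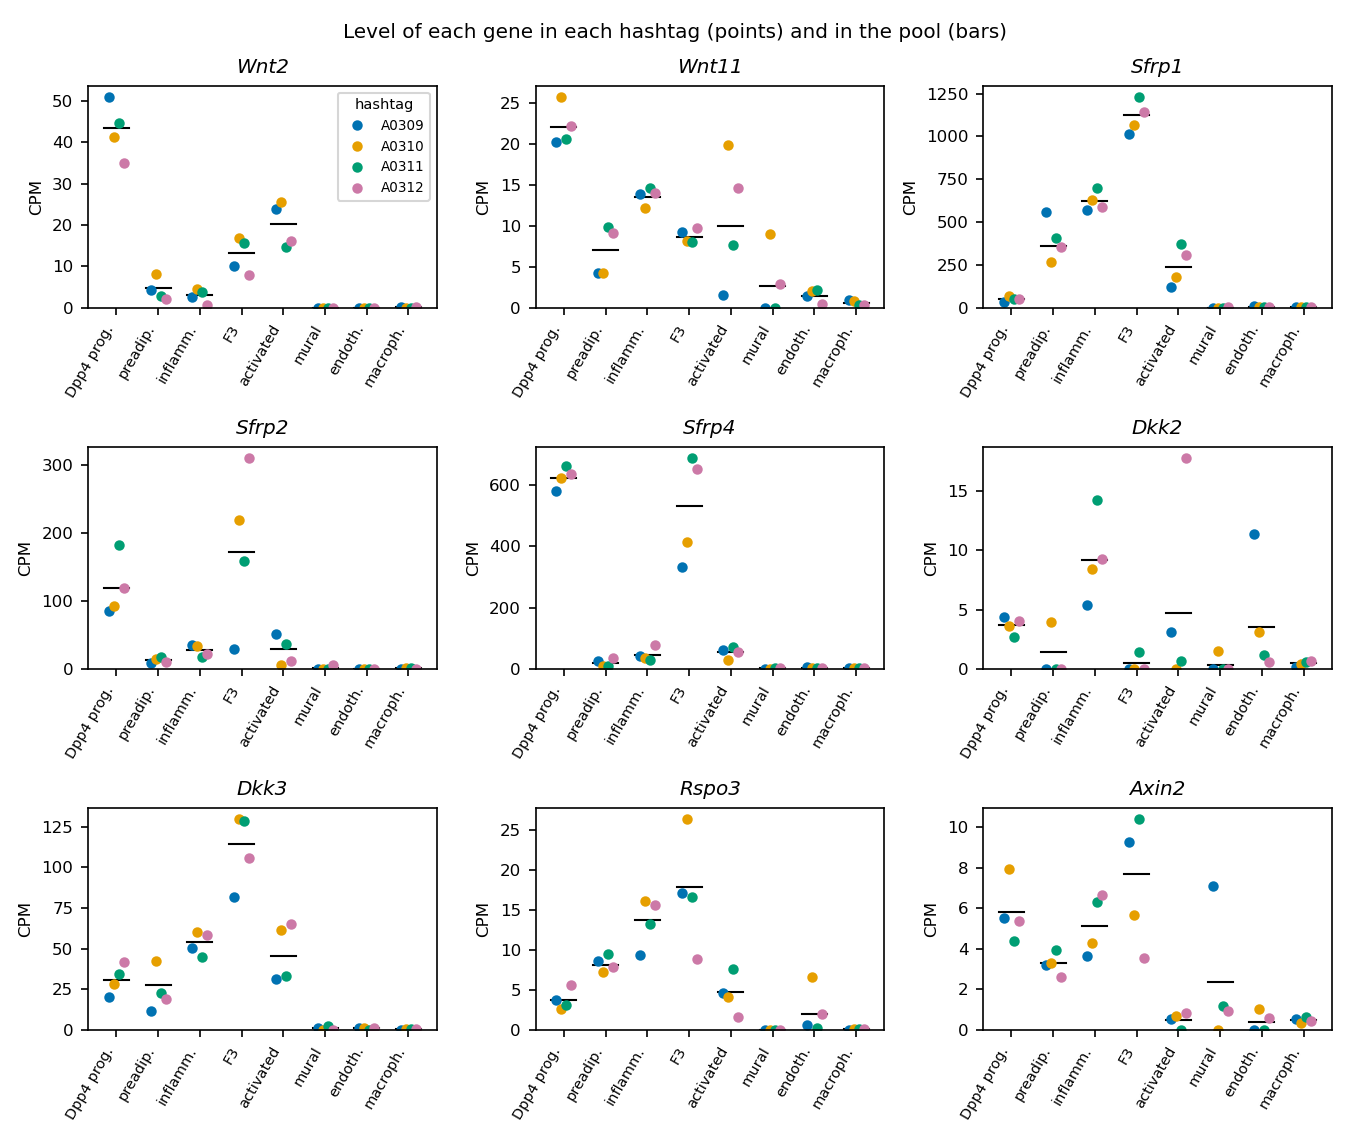
Level of each gene in CPM (vertical axes, own scale per gene) in the 5 named fibroblast states and in the mural, endothelial and macrophage-like classes; points are the 4 hashtags and the short bars the pooled cells. The Wnt2 points of the Dpp4 progenitor-like cells lie between 34.9 and 51.0 CPM, above all others, and the Sfrp2 points of the F3 fibroblast-like cells run from 28.5 to 310.8 CPM.

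Dkk2, an LRP-binding modulator (chr3:132085292-132180304, plus strand), was rare, with counts in 3.30% of fibroblast-like and 1.49% of endothelial-like cells and 1.13% of macrophage-like cells, and after thinning 2.48%, 1.10% and 0.403%. Among the stromal and vessel groups its highest level was in the Trf, Agt and Mylk-led fibroblasts, at 32.6, 19.1, 3.43 and 7.91 CPM, from 152 counts in 12 of 321 cells. Arterial-like endothelial cells were next, at 40.7, 16.3, 2.72 and 1.20 CPM, from 54 counts in 10 of 163 cells. The hashtags thus differed widely in both groups, and the ranges overlapped. Over the other endothelial cells the arterial log2 ratio was 3.57 but ran from 0.57 to 5.38, so the gene was not called. Without A0312 it was called, at 3.97. None of the 3 of 9 genes tested was called there, where 5.66% of 12247 genes were. The arterial-like cells also carried mural markers, 7 of 8 of them in over 25% of cells, with a summed level of 6044 CPM (4149 to 8386 between hashtags) against 16481 in mural-like cells. Dkk2 itself had 1 count in the 214 mural-like cells.

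Dkk3, a divergent Dickkopf protein (chr7:112116017-112159057, minus strand), was highest, among the fibroblast and vessel groups, in an unnamed sub-cluster led by Chchd10, Mmp11 and Mdk. There it stood at 136, 168, 156 and 124 CPM, with counts in 181 of 276 cells. The F3 fibroblast-like cells followed at 82.1, 130, 128 and 106 CPM and overlapped it. Both lay above the inflammatory fibroblasts, at 50.2, 60.4, 44.9 and 58.1 CPM. The other groups had overlapping ranges down to 20.6 CPM in the Aldh1a2, Hsd11b1 and Mmp3-led cells. In endothelial-like and mural-like cells Dkk3 stood at 0.85 and 0.88 CPM, from 14 and 3 counts.

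Rspo3, the R-spondin of the list (chr10:29452416-29535867, minus strand), was highest among fibroblasts in the Trf, Agt and Mylk-led cells, at 15.1, 25.7, 26.2 and 24.7 CPM. The F3 fibroblast-like cells (17.8 CPM), the Aldh1a2, Hsd11b1 and Mmp3-led cells (14.2) and the inflammatory fibroblasts (13.7) overlapped these or each other, and Dpp4 progenitor-like cells were lowest at 3.77 CPM. Rspo3 was also found in part of the endothelium. The 13 lymphatic-like cells held 8 counts in 4 cells, or 46.7 CPM with an exact Poisson 95% interval of 20.2 to 92.0. The hashtags, of 2, 4, 2 and 5 cells, ran from 0 to 57.6 CPM, and the interval does not cover differences between cells. The 150 venous-like cells held 22 counts in 3 cells, at 0, 38.4, 0 and 9.31 CPM, whereas 546 capillary-like cells held 1 count and 163 arterial-like cells none. The venous log2 ratio over other endothelial cells was 2.54 but ran from -0.72 to 4.15, so the only gene of the 9 tested there was not called, where 4.25% of 12147 genes were. Over all endothelial-like cells the fibroblast ratio was 1.89 (0.58 to 3.19), short of a call through A0310. Without A0310 it was called, at 2.45. With no count in 214 mural-like cells, Rspo3 was at least 11.2-fold higher in fibroblasts when set against the same floor of 3 counts.

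Axin2, the target gene (chr11:108920349-108950783, plus strand), was low throughout, with counts in 7.95% of fibroblast-like cells, 0.297% of endothelial-like cells and 0.907% of macrophage-like cells, and after thinning 3.95%, 0.413% and 0.302%. Among the fibroblast and vessel groups its highest levels were in 3 unnamed fibroblast sub-clusters. The Chchd10, Mmp11 and Mdk-led cells stood at 16.9, 13.6, 18.7 and 10.3 CPM. The Malat1, Neat1 and Gm47031-led cells stood at 32.2, 0, 31.1 and 0 CPM, from 20 counts in 5 of 110 cells. The Trf, Agt and Mylk-led cells stood at 15.6, 10.7, 16.3 and 8.41 CPM, and the ranges of the 3 overlapped. Dpp4 progenitor-like cells, where Wnt2 was highest, stood at 5.52, 7.96, 4.38 and 5.38 CPM for Axin2. These lay within the range of the F3 fibroblast-like cells and overlapped that of the inflammatory fibroblasts, 3.63 to 6.68 CPM. In activated fibroblasts Axin2 had 3 counts in 141 cells, at 0.52, 0.69, 0 and 0.81 CPM, below every hashtag of the other named states. In mural-like cells it had 8 counts in 3 cells, 6 of them in 1 cell of A0309 (7.08 CPM in that hashtag), and the fibroblast ratio of 1.03 ran from -0.16 to 2.73. Without A0309 the ratio was 1.91 and passed the rule.

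The Dpp4 progenitor-like cells paired high Wnt2, Sfrp2 and Sfrp4 with low Sfrp1 when set against preadipocyte-like cells. The log2 ratios were 2.95 for Wnt2, 3.04 for Sfrp2, 5.06 for Sfrp4 and -2.83 for Sfrp1. These were 3 calls higher and 1 lower among 8 genes tested, where 2.99% and 2.94% of 11584 genes were called higher and lower. Wnt11, at 1.52, missed the call through A0311 at 1.00, and Dkk3 (0.13), Rspo3 (-0.94) and Axin2 (0.66) were not called. With hashtags set from the tag counts, the Wnt2 ratio was 1.22 and the Sfrp2 ratio 1.44, and both lost the call. Sfrp2 also lost it at clustering resolutions 0.5 (1.9) and 2.0 (1.55). The preadipocyte-like state held 223 cells as reported, 325 with those hashtags, and 1332 and 724 at the other resolutions, so the cells compared also differed. With those hashtags the Dpp4 progenitor-like state held 251 cells. Of these, 57 had Spp1, Folr2 and C1qa among their leading genes and 39 were led by cell-cycle genes, and neither sub-cluster was left out. Against all other fibroblasts the same 4 genes were called, at 2.81, 1.61, 3.12 and -3.35 for Wnt2, Sfrp2, Sfrp4 and Sfrp1, where 2.2% of 11437 genes were called higher and 2.68% lower. Without A0312, Wnt11 (1.21) and Rspo3 (-1.66) were called as well, and with hashtags set from the tag counts Wnt2 lost the call (1.8).

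The other states were set against the remaining fibroblasts in the same way, and these comparisons share most of their cells. F3 fibroblast-like cells were called higher in Sfrp1 (1.66) and Dkk3 (1.34) and lower in Dkk2 (-2.28), where 0.978% of 11454 genes were called higher and 0.716% lower. Dkk2 had 3 counts in 1 cell there, so its ratio rests on a group at the floor, and with a pseudocount of 5 CPM it lost the call (-1.03). Sfrp2 (1.66) and Sfrp4 (1.39) were held from a call by A0309, and without it they were called at 1.95 and 1.54, which took the count of genes called from 3 to 5. Preadipocyte-like cells were lower in Sfrp2 (-2.14) and Sfrp4 (-3.65), where 0.531% of 11479 genes were called higher and 1.39% lower, and without A0310 Wnt2 (-2.26), Dkk2 (-2.82) and Dkk3 (-1.23) were lower too, 5 genes in all. Sfrp2 lost this call with hashtags set from the tag counts (-0.7) and at resolutions 0.5 (-1.36) and 2.0 (-0.87). Inflammatory fibroblasts were lower in Wnt2 (-2.25) and Sfrp4 (-2.47), where 0.502% of 11347 genes were called higher and 0.652% lower. Their Sfrp1 ratio was 0.84, with a narrow range from 0.79 to 0.90, under the size set, and the gene was called at resolution 0.5 (1.23) and with the mixed sub-clusters kept (1.04). The Trf, Agt and Mylk-led cells, at 1137 CPM of Sfrp1, stood among the other fibroblasts here. Activated fibroblasts were lower in Sfrp4 (-2.03) and Axin2 (-2.26), where 1.23% of 11424 genes were called higher and 1.87% lower. The Axin2 call was lost with a pseudocount of 5 CPM (-1.02). Without A0309, Sfrp2 (-1.72) was also lower, 3 genes in all. For the lower Sfrp4 calls, the other fibroblasts included the Dpp4 progenitor-like (625 CPM) and F3 fibroblast-like (533) cells. Elsewhere Sfrp4 ran from 58.5 CPM (Col8a1, Tagln and Tnc-led) to 10.6 (Malat1, Neat1 and Gm47031-led) in the pools. Activated (55.1), inflammatory (45.1) and preadipocyte-like (17.7) cells lay within that range. For Wnt2, inflammatory fibroblasts lay between activated (20.3) and Trf, Agt and Mylk-led cells (0.84), with Dpp4 progenitor-like cells at 43.4.

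**Figure D3:**
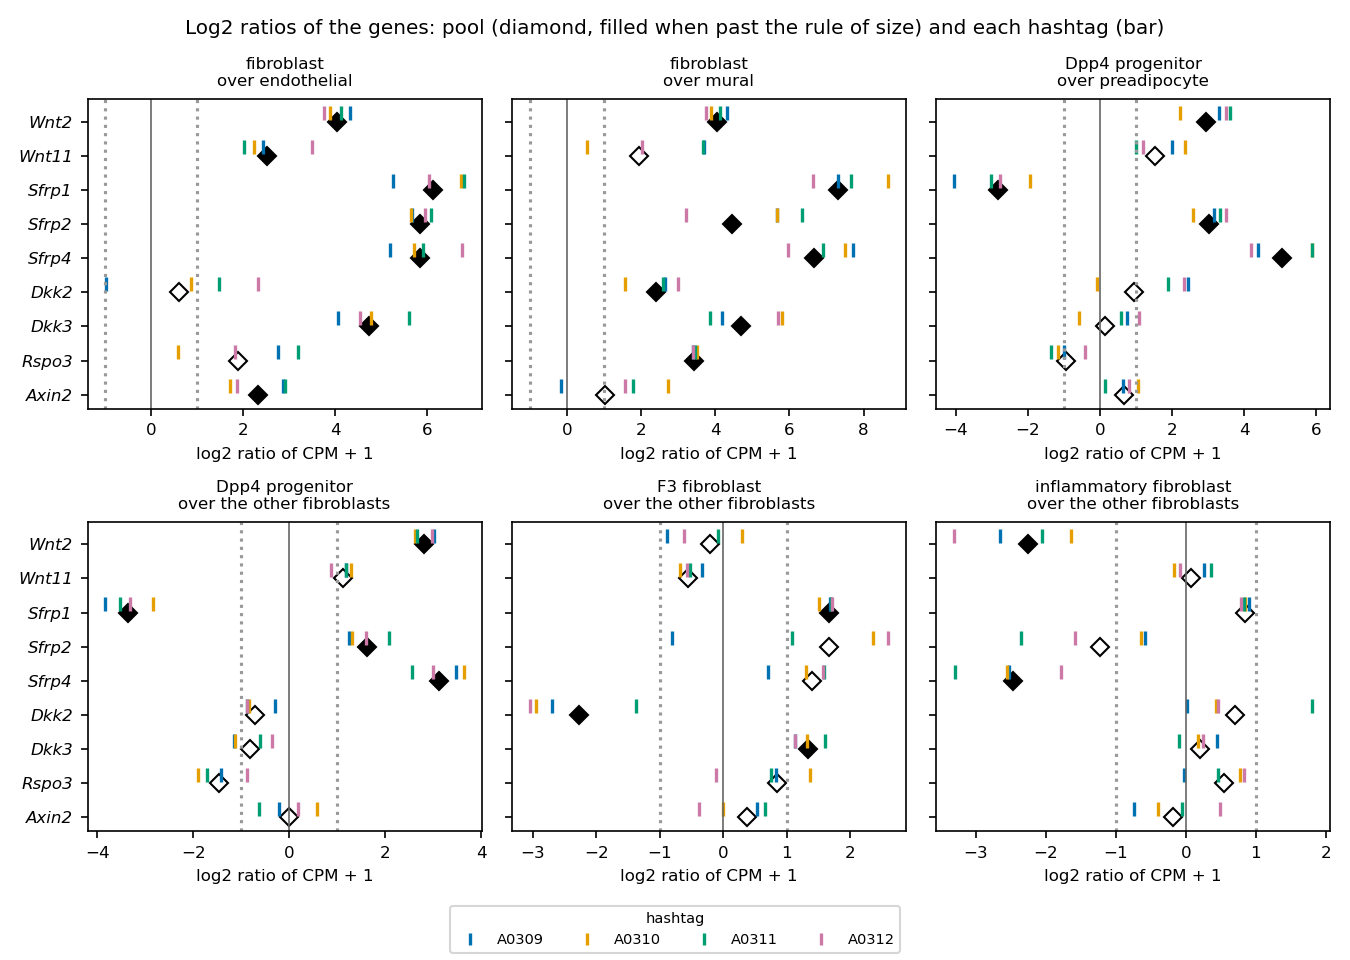
Log2 ratio of CPM + 1 (horizontal axes) for each gene in 6 comparisons; diamonds are the pooled cells, filled where past the rule of size, short bars are the 4 hashtags, and dotted lines mark -1 and 1. Over preadipocyte-like cells, Sfrp4 (5.06) and Sfrp1 (-2.83) of the Dpp4 progenitor-like cells lie on opposite sides in every hashtag.

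Over all fibroblast-like cells, Sfrp4 was found more often in cells with Wnt2 than in those without, and less often in cells with Sfrp1 than in those without. Among 3342 fibroblast-like cells thinned to 10000 counts, Sfrp4 was found in 63.6% of the 250 cells with Wnt2, at 63.5%, 64.7%, 66.7% and 57.8% in the hashtags. In cells without Wnt2 it was found in 25.4%, at 23.6%, 23.4%, 28.6% and 26.5%, so the hashtags did not overlap. Sfrp4 was found in 19.3% of the 1769 cells with Sfrp1 and in 38.3% of the 1573 without. Both Sfrp1 and Sfrp4 were found in 341 cells, Sfrp1 alone in 1428, Sfrp4 alone in 602 and neither in 971. Wnt2 was found in 3.39% of cells with Sfrp1 and 12.1% of cells without. Within states the pairs differed. In the Dpp4 progenitor-like cells Sfrp4 was found in 76.3% of cells with Wnt2 and 70.9% of cells without, with overlapping intervals. Before thinning the shares were 85.9% (81.4% to 89.7%) and 77.3% (73.6% to 80.6%), and neither the intervals nor the hashtags overlapped. So a smaller difference than over all fibroblasts was seen in this state, and its separation depended on depth. Wnt2 was still found less often with Sfrp1 there, in 11.4% (6.89% to 17.4%) of cells with Sfrp1 and 22.5% (19.5% to 25.8%) of cells without, and the hashtags did not overlap. In inflammatory fibroblasts Sfrp4 was found in 5 of the 12 cells with Wnt2 (41.7%, from 15.2% to 72.3%) and in 9.85% (7.58% to 12.5%) of cells without. In the Dpp4 progenitor-like cells Wnt11 was found in 11.6% of cells with Wnt2 and 18.3% of those without, and before thinning in 34.4% and 33.6%, so the ligands were not found together more often than apart. For Sfrp4 and Sfrp1 the shares lay closer within 3 states than over all fibroblasts. Sfrp4 was found in 68.4% of Dpp4 progenitor-like cells with Sfrp1 and 72.8% without, in 51.4% of F3 fibroblast-like cells with Sfrp1 and 40.0% of the 25 without, and in 10.9% of inflammatory fibroblasts with Sfrp1 and 9.41% without, each with overlapping intervals. A zero at this depth does not show that a cell lacks the transcript.

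**Figure D4:**
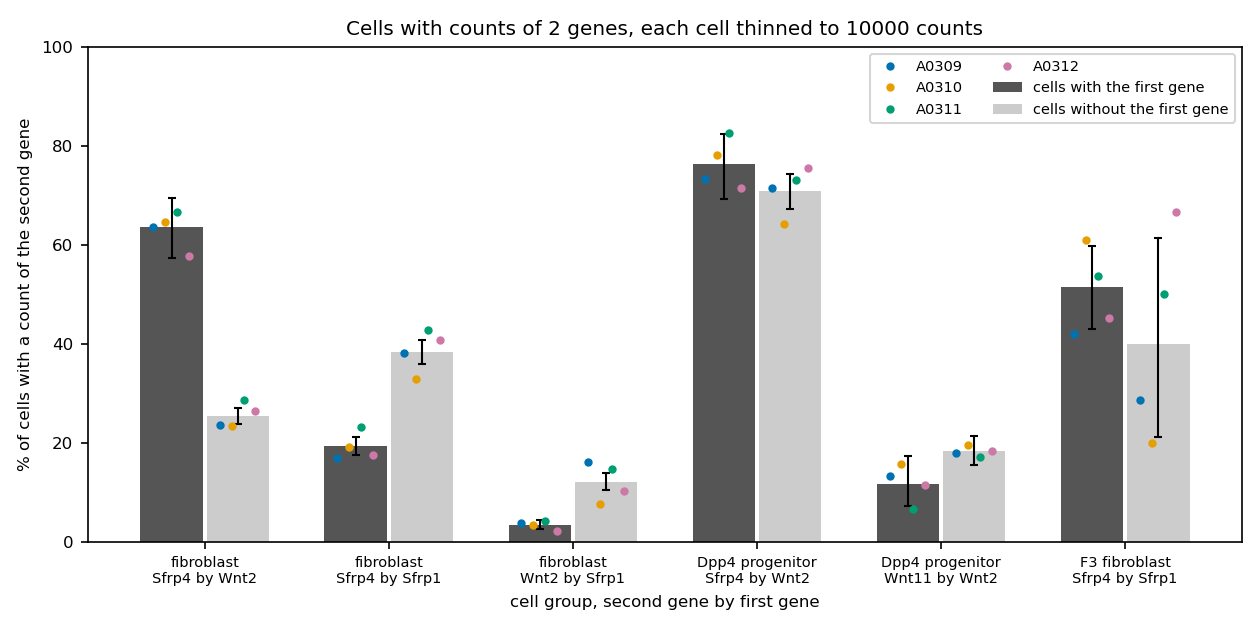
Share of cells with a count of a second gene (vertical axis, %) among cells with (dark) and without (light) a count of a first gene, each cell thinned to 10000 counts; lines are exact Clopper-Pearson 95% intervals and points the hashtags. Sfrp4 is in 63.6% of fibroblast-like cells with Wnt2 against 25.4% without, but in 76.3% against 70.9% within the Dpp4 progenitor-like cells (85.9% against 77.3% before thinning, not drawn).

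The Dpp4 progenitor-like state held 3 sub-clusters. The 2 larger ones differed in Sfrp1 and Wnt11, and their hashtags overlapped in Wnt2. Sfrp1 stood at 41.5, 78.4, 54.6 and 67.4 CPM in the 488 cells led by Scg3, Fgf1 and Tnfrsf11b and at 12.4, 18.5, 23.7 and 29.2 CPM in the 339 cells led by Sema3c, Aif1l and Ccn3. Wnt11 went the other way, at 12.9, 19.95, 15.4 and 18.6 CPM against 26.1, 31.9, 31.5 and 28.8 CPM. In both genes the hashtags of the pair of sub-clusters did not overlap. Wnt2 stood at 44.2 and 45.8 CPM, and Sfrp4 at 595 and 689 CPM, with overlapping hashtags. The 36 cells led by the interferon-induced Ifit1 and Ifit3 had 6.82 CPM of Wnt2, 39.4 of Wnt11, 173 of Sfrp1 and 471 of Sfrp4, with 7 to 11 cells per hashtag.

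The wider pathway was read through 6 lists of 83 other Wnt genes, of which 72 were in the table. Fibroblasts were higher than endothelial cells in 15 and lower in 7 of the 47 tested, with a median log2 ratio of 0.45 against -0.31 over all genes, of which 9.95% were higher and 12.6% lower. Among ligands, Wnt5a (4.2) and Wnt5b (2.52) were higher, while Wnt4 was at 12.7 and 14.0 CPM and not called. Wls, which carries Wnt ligands to the surface, was higher (2.0), and the secreted Rspo1 (3.83) and Cthrc1 (2.30) were too. Of 16 receptors 5 were higher, led by Fzd2 (5.14), Ror1 (3.81), Fzd1 (3.58) and Ror2 (2.31), and 3 were lower, Fzd6 (-4.99), Lrp5 (-1.89) and Fzd4 (-1.33). Ryk stood at 159.8 and 80.1 CPM and was not called. Of 14 genes of the cytoplasmic and nuclear list none was higher, and Apc (-1.53) and Ctnnb1 (-1.34), which encodes beta-catenin, were lower. Of 10 common target genes 5 were higher, led by Dact1 (4.77), Ccn5 (4.17), Ccn4 (3.65) and Myc (2.45), and Ccnd1 (-4.0) and Bambi (-1.92) were lower. So the target genes other than Axin2 did not go 1 way between these classes.

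Against mural cells, 4 of 46 genes were higher in fibroblasts, led by Wnt5a (4.46), and 6 were lower, among them Fzd6 (-2.96), Ccnd1 (-2.61) and Nkd1 (-2.09), where all genes gave 6.02% and 8.16%. Rspo1 was among the 4, at 28.8 CPM in fibroblasts and with no count in mural cells. Within the fibroblasts, Dpp4 progenitor-like cells were higher than preadipocyte-like cells in 6 of 48 and lower in 4, where all genes gave 2.99% and 2.94%. Wnt10b, a ligand known to hold back adipogenesis, stood at 13 CPM against no count, and Rspo1 (2.83), Wnt5b (2.83), Dact1 (1.61), Lgr4 (1.57) and Myc (1.23) were also higher. Frzb (-3.63), a secreted Wnt antagonist, Nkd1 (-1.99), Ccn4 (-1.86) and Fzd4 (-1.30) were lower. Over all other fibroblasts Wnt10b (3.43), Lgr4 (1.95) and Dact1 (1.24) were higher and Ccn4 (-2.76), Ccn5 (-2.41) and Ror1 (-1.36) lower, 3 and 3 of 47, where all genes gave 2.2% and 2.68%. F3 fibroblast-like cells, with their high Sfrp1 and Dkk3, were higher in Ccnd1 (2.44), Ccn5 (2.43), Nkd2 (1.62) and Wnt5a (1.35) and lower in Cthrc1 (-1.81), 4 and 1 of 46, where all genes gave 0.978% and 0.716%. Inflammatory fibroblasts were higher in Myc (1.27) and lower in Ccnd1 (-1.63), 1 and 1 of 44, where all genes gave 0.502% and 0.652%. Activated fibroblasts were higher in Ccn4 (2.16) and lower in Dact1 (-2.10), 1 and 1 of 47, where all genes gave 1.23% and 1.87%.

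Genes with the most similar pattern were sought over 11 groups: the 5 fibroblast states, the mural cells and 5 endothelial groups. Pearson's r of log2(CPM + 1) is given as a description, since the groups share 1 library and most of the contrast lies between fibroblasts and vessel cells. The unnamed fibroblast sub-clusters were left out. Among fibroblasts, they included the groups with the highest pooled levels of Sfrp1, Dkk2, Dkk3 and Rspo3. Sfrp4 was closest to Pi16 (0.988), a marker used to name the Dpp4 progenitors. Wnt2 was closest to Mgam (0.983), Wnt11 to Metrnl (0.985) and Sfrp1 to Smoc2 (0.984). Sfrp2 was closest to Gm32885 (0.980), followed by the collagen gene Col14a1 (0.975). Dkk3 was closest to Cilp (0.985), an extracellular matrix gene, and Rspo3 to Lbp (0.938). Dkk2 had no close neighbour, with Sat1 the nearest at 0.801, and Axin2 was under the 10 CPM needed in these groups.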

How the data were processed

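The authors deposited whole-number counts for each gene in each cell, and the sources used here do not give what 1 count stands for, a molecule or a read. GRCm38, Bowtie2 2.4.2, cutadapt 3.4 and R (4.1.2 and 3.6.3) are listed in the submitters' processing notes without their roles. Of 15741 cells, 15374 carry a hashtag in their name and 367 were named doublets by the authors and left out. Cells needed 200 genes and at most 25% mitochondrial counts. Scanpy 1.11.5 with leidenalg 0.10.2 clustered them (2000 variable genes, 30 components, 20 neighbours, resolution 1), leaving out the 9 genes and the Wnt lists. A cluster was named from at least 3 markers, each found in 25% of its cells at a log2 difference of at least 1 over a reference level. For a class this was the lower quartile over all clusters. For a state it was the median of the other sub-clusters, mixed ones left out. The rules for naming and for leaving out mixed sub-clusters were set after seeing the data, as were the arterial, venous and co-detection comparisons and the sub-clusters described.

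Levels are summed counts as CPM. Genes with 5 CPM on either side were compared with a pseudocount of 1 CPM. All 9 genes are named, with the called genes of each Wnt list (up to 4 by size in a comparison and direction) or the uncalled one with the highest level, and up to 3 closest genes by pattern. The 9 genes and the lists were chosen with earlier results of these data known. Intervals are exact 95% (Poisson, Clopper-Pearson). Thinning was to 10000 counts. The comparison code was tested on simulated data. Wnt3, Wnt3a, Wnt7a, Wnt7b, Wnt10a, Notum, Wif1, Sost, Sostdc1, Sp5 and Tnfrsf19 were not analysed here. Alternatives covered pseudocount, filters, resolution, weighting, hashtag calls from tag counts (10 counts, 75% from 1 tag), doublet scores and each hashtag left out.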

Additional observations from a re-analysis of the deposited data

Results flagged for a closer look

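Several of the 9 genes had a level above that of macrophage-like cells in cells outside the comparisons. Wnt11 stood at 32.69 CPM in 176 dendritic-like cells, at 41.3, 54.3, 6.05 and 21.8 CPM in A0309, A0310, A0311 and A0312. It stood at 20.76 CPM in the 623 cells of a cluster led by Ear2, Retnla and Ifitm6, at 22.5, 24.5, 20.3 and 14.3 CPM, whereas the interval in macrophage-like cells was 0.457 to 0.6. Dkk3 stood at 32.88 CPM in the dendritic-like cells, at 32.4, 29.0, 26.2 and 41.6 CPM, against 0.289 to 0.405 in macrophage-like cells.

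Axin2 stood at 12.69 CPM in 407 T cell-like cells, at 20.4, 1.83, 22.5 and 9.35 CPM, with A0310 far below the others. The macrophage-like interval was 0.404 to 0.540. In the 17 mesothelial-like cells, Sfrp2 stood at 653.0 CPM with a count in all 17 cells, Dkk3 at 158.4, Sfrp1 at 19.53 and Axin2 at 13.02; the last rests on 6 counts in 2 cells. These 17 cells were spread as 5, 3, 7 and 2 over the hashtags. No hashtag stood apart by Dixon's test in the 35 groups of 4 values tested.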

How the results depend on the processing

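No paired analysis was possible because the labels give 1 transcript library and pair no hashtag with a genotype. Of the log2 ratios under other settings, 1033 kept their direction and side of the rule, 22 gained and 23 lost a call, and 2 turned direction. Those were Axin2 in F3 fibroblast-like over other fibroblasts, 0.37 as reported and -1.78 and -1.73 at clustering resolutions 0.5 and 2.0; the cause was not tested. With a minimum of 20 CPM, where fewer genes were tested, 4 genes were called over endothelial and 4 over mural cells, 1 in inflammatory and 1 in activated fibroblasts, where a pseudocount of 5 CPM also gave 1. At resolution 0.5, 1 gene (Sfrp1) was called between mural and endothelial cells. Hashtags set from tag counts gave 2 calls of Dpp4 progenitors over preadipocytes and 1 of preadipocytes over other fibroblasts, with the Dpp4 progenitor levels of Wnt2 at 17.9 and Sfrp4 at 380 CPM. That rule left 11281 cells, with 987 fibroblast-like, 251 Dpp4 progenitor-like and 325 preadipocyte-like among them, no mural class, 17 F3 fibroblast-like and no activated cells, and no activated state was named at either other resolution, so those values are missing. The 987 cells kept unnamed sub-clusters of 147 and 98 cells led by macrophage genes. The 251 cells kept 57 with macrophage genes such as C1qa among the leading ones, and 39 led by cell-cycle genes. What these cells did to the levels was not tested.

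With each hashtag left out, calls ranged from 7 to 8 over endothelial and over mural cells, 4 to 5 for Dpp4 progenitors over preadipocytes, 4 to 6 over other fibroblasts, 2 to 5 for preadipocytes, 3 to 5 for F3, 2 to 3 for activated and 0 to 1 for arterial cells. Inflammatory fibroblasts kept 2, and mural over endothelial and venous cells 0. Of the counts over all genes, 21 moved by more than 1.5 times. With mixed sub-clusters kept they were 847 (from 559) for Dpp4 progenitors, 398 (221) for preadipocytes, 385 (131) for inflammatory, 389 (194) for F3, 532 (354) for activated fibroblasts and 806 (516) for venous cells. Hashtags from tag counts gave 336, 819 and 944 for the first 3 of these and 157 (693) for arterial cells. With a minimum of 20 CPM they were 371 for Dpp4 progenitors, 144 for preadipocytes, 218 for activated and 328 for venous cells. With a pseudocount of 5 CPM they were 146 for preadipocytes, 121 for F3, 194 for activated and 328 for venous cells. Resolutions 0.5 and 2.0 gave 464 and 407 for F3, and 2.0 gave 206 for arterial cells.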

Other observations

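Wnt11 and Dkk3 were spread differently over the dendritic-like clusters: Wnt11 was found in both, and Dkk3 in the larger only. The 21 cells led by Ccl22, Ccr7 and Apol7c stood at 160 CPM for Wnt11, with a count in 15 cells, at 54.7 CPM for Dkk2 and at no count for Dkk3. The 155 other dendritic-like cells, led by Plbd1, Septin3 and Jaml, stood at 20.7 CPM for Wnt11, no count for Dkk2 and 36 CPM for Dkk3. The mesothelial-like cells stood at 807 CPM for Rspo1, against 28.8 CPM in fibroblast-like cells.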
